A study of Homo sapiens with 6 samples.

Results

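The Toll-like receptor genes followed here, in a leukaemia line that received guide RNAs against METTL1, were the receptors TLR1, TLR2, TLR4, TLR5, TLR6, TLR7 and TLR8, the lipopolysaccharide co-receptors CD14 and LY96, and the adaptor MYD88. They were taken by symbol from a named gene family, with earlier results of these data known. All 10 were found among the 18806 gene symbols of the deposited table. TLR3, TLR9 and TLR10 are described with the other genes of the pathway. The cells were Mono-mac-6, a monocytic human acute myeloid leukaemia line that carries the MLL-AF9 fusion gene. One Cas9-expressing clone received a guide by lentivirus. Selection used 10 µg/ml blasticidin together with 200 µg/ml hygromycin B, and cells were collected about 8 to 10 days after transduction. The groups were the METTL1 guide sgMETTL1.3, the METTL1 guide sgMETTL1.6 and the control guide sgNS, with 2 stranded poly(A)+ RNA libraries in each and 6 in all. All 3 groups share the Cas9 clone, the fusion gene and the selection, and the guides were read in a single clone. The column name of every library also holds the letters EV, left unexplained there, so any condition behind them is shared too.

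Toll-like receptors are membrane proteins that recognise microbial molecules. TLR2 pairs with TLR1 or TLR6 at the cell surface to bind bacterial lipopeptides, TLR4 binds lipopolysaccharide through LY96 (also called MD-2) with CD14 handing the ligand over, TLR5 binds flagellin, and TLR7 and TLR8 bind single-stranded RNA in endosomes. All of the receptors followed here signal through MYD88, which assembles IRAK kinases and leads to NF-kB and cytokine genes. Monocytes are among the cells that respond most readily through TLR2 and TLR4. METTL1 is a methyltransferase that adds N7-methylguanosine to tRNAs.

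Values are TPM, estimated transcript abundances corrected for length and scaled to a common total, so levels may be compared between genes. TPM keep no read depth, which is therefore unknown, and counting intervals cannot be formed. Nothing in the labels ties the libraries of a group to separate cultures, and the p-values then reflect library-to-library spread that may be technical. Changes are differences of log2(TPM + 1), a scale on which changes of low genes come out too small, with a standard error (SE) from limma fitted over the 10911 genes that averaged 1 TPM or more. A gene was called at a Benjamini-Hochberg adjusted p under 0.05. METTL1 mRNA measured 18.29 and 16.56 TPM under the label sgMETTL1.3, 11.15 and 11.69 TPM under sgMETTL1.6, and 15.38 and 13.89 TPM under sgNS. It was thus higher than control with sgMETTL1.3 (log2 change 0.24, limma adjusted p = 0.011, lost without sgNS replicate 2 or sgMETTL1.3 replicate 1 with an adjusted p = 0.12 each) and lower with sgMETTL1.6 (log2 change -0.33, limma adjusted p = 0.0017). A Cas9 cut need not lower the mRNA, so the level does not check the cut; the labels report that loss of the protein was seen by Western blot. Every direction below is drawn from the libraries as labelled. Replicates differed by a median of 2.42% to 3.15% over the 1742 genes that averaged 100 TPM or more.

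Of the monocytic markers, LYZ, CD33, CD68, MNDA and FCGR1A were present in every library and FCN1, CSF1R and CD4 were below 1 TPM. Mono-mac-6 is known as a CD14-bearing line, but CD14 mRNA was below 1 TPM in every library here, the control ones included. The T cell markers CD3D, CD3E, CD3G, CD2 and LCK were listed at 0 throughout. B cell markers summed to 1.67 to 2.50 TPM in the guide libraries and 2.64 to 2.98 TPM in the sgNS libraries, with MS4A1 at 0. The NK list was made up almost wholly of NKG7, with KLRD1 at 0, and summed to 88.7 to 96.5 TPM in the guide libraries and 113 to 123 TPM in the sgNS libraries. Erythroid markers, chiefly HBA1, summed to 1.92 to 2.88 TPM in the guide libraries and 0.17 to 1.51 TPM in the sgNS libraries, with HBB at 0. Megakaryocyte markers summed to 0.14 to 0.32 TPM in the guide libraries and 0.37 to 0.62 TPM in the sgNS libraries, with PF4 and PPBP at 0. Epithelial and stromal markers, chiefly KRT18, summed to 13.0 to 13.5 TPM in the guide libraries and 17.1 to 17.2 TPM in the sgNS libraries.

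The 6 members averaging 1 TPM or more were TLR1, TLR2, TLR4, TLR6, LY96 and MYD88, and each was above 1 TPM in every library. CD14, TLR5, TLR7 and TLR8 were not tested in the main comparison. Ordered by level in the sgNS libraries, TLR2 stood first with 105.53 and 107.56 TPM, followed by MYD88, TLR4, LY96, TLR6, TLR1, CD14, TLR5, TLR8 and TLR7, with no overlap between neighbours in that order. With sgMETTL1.3 the order differed in that the libraries of LY96 and TLR6, and of TLR6 and TLR1, overlapped, and TLR5 stood above CD14. With sgMETTL1.6, TLR1 stood above TLR6, and TLR5 and CD14 overlapped. LY96 stood just under its partner TLR4 in the control libraries and further under it with either METTL1 guide.

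**Figure D1:**
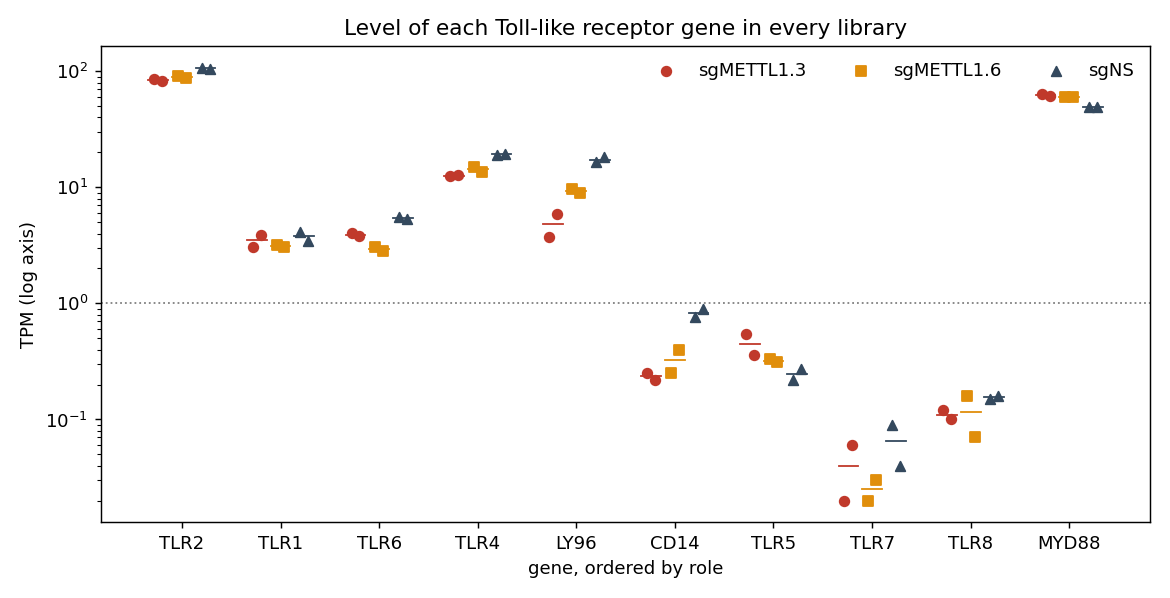
TPM of the 10 genes in each library (log axis), with sgMETTL1.3 as circles, sgMETTL1.6 as squares and sgNS as triangles. Short lines are means of 2 libraries and the dotted line marks 1 TPM; LY96 shows the widest separation of the groups among the genes above that line, and CD14 lies below it in every library.

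Of the 6 tested members, 4 fell and 1 rose in the comparison of both METTL1 guides with sgNS, and TLR1 was not called. In that comparison 59.4% of all tested genes were called, 26.8% lower and 32.6% higher, and the members' count is read against that share. Guide and sgNS libraries did not overlap for 5 of the 6 members and for 60.2% of tested genes. The median log2 change of the 6 members was -0.39, against 0.023 over all tested genes. In bulk RNA, fewer cells that express a gene and less of its RNA per cell cannot be told apart.

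Of the lipopolysaccharide receptor complex, LY96 and TLR4 fell and CD14 was too low for the main comparison. LY96, the small secreted protein that holds lipopolysaccharide within TLR4, lies on the plus strand of chromosome 8 (73991352 to 74029087, GRCh38, GENCODE 29; ENSG00000154589.6). Its longest annotated transcript has 607 bases, none of its 31-base stretches occurs in another gene's transcripts, and its level was 3.72 and 5.91 TPM under sgMETTL1.3, 9.74 and 8.99 TPM under sgMETTL1.6, and 16.51 and 18.20 TPM under sgNS. All guide libraries of LY96 lay below both control libraries, which held in that direction for 27.3% of tested genes. The means with the guides were 27.7% and 54% of the control mean. Over both guides LY96 fell by 1.25 ± 0.11 on the log2 scale (SE, limma adjusted p = 9.2e-07). Only 0.816% of tested genes fell at least as far.

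The effect on LY96 differed between the guides. It fell by 1.68 ± 0.13 with sgMETTL1.3 (limma adjusted p = 2.8e-07) and by 0.82 ± 0.13 with sgMETTL1.6 (adjusted p = 0.00019). The direct comparison of sgMETTL1.3 with sgMETTL1.6 gave a log2 difference of -0.86 ± 0.13 (limma adjusted p = 0.00083), the 7th lowest of the 10911 genes. The libraries labelled sgMETTL1.3 lay further apart from each other than those of the other groups, and without replicate 1 of that guide the difference was -0.58 (adjusted p = 0.0018). With no filter on low values the difference kept its size but missed the threshold (limma adjusted p = 0.054), in a setting that called 6.53% of genes between the guides.

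TLR4, the signalling receptor of the complex, lies on the plus strand of chromosome 9 (117704175 to 117724730, ENSG00000136869.14), inside the annotated span of AL160272.2 on the same strand, with which it shares 3.98% of its 31-base stretches. Its level was 12.54 and 12.69 TPM under sgMETTL1.3, 15.09 and 13.61 TPM under sgMETTL1.6, and 19.00 and 19.55 TPM under sgNS. Every guide library lay below both control libraries, as it did for 27.3% of tested genes. The log2 change over both guides was -0.49 ± 0.055 (SE, limma adjusted p = 7.0e-06). Between the guides TLR4 differed by -0.17 (95% interval -0.31 to -0.03), which did not pass the adjusted threshold (adjusted p = 0.069) but passed it with quantile or median-ratio scaling, without ribosomal protein genes, with the replicate block and without sgMETTL1.6 replicate 2 (adjusted p = 0.028 to 0.048).

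LY96 and TLR4 are needed together, so their ratio was taken in each library as a description. LY96 reached 0.297 and 0.466 of the TLR4 level with sgMETTL1.3, 0.645 and 0.661 with sgMETTL1.6, and 0.869 and 0.931 with sgNS. The ratio was lower in every guide library than in either control library.

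CD14, the surface protein that passes lipopolysaccharide to TLR4, lies on the minus strand of chromosome 5 (140631728 to 140633701, ENSG00000170458.13). It was listed at 0.25 and 0.22 TPM under sgMETTL1.3, 0.25 and 0.40 TPM under sgMETTL1.6, and 0.76 and 0.90 TPM under sgNS. The guide libraries lay below both control libraries, while 26.2% of the 1934 genes averaging 0.1 to under 1 TPM did not overlap, 17.6% in this direction. The guide means were 28.3% and 39.2% of the control mean. CD14 passed the test when no filter on low values was used (log2 change -0.52 ± 0.059, SE, limma adjusted p = 0.0018), a setting that called 39.2% of the genes it tested, 18.6% lower and 20.7% higher. Values are deposited to 2 decimals, and how many reads lie behind values at this level is not known.

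Promoters are shown as a description, and any part of theirs in the changes was not tested. A RefSeq table of promoters on GRCh38.p14 held 7 of the 10 genes, and LY96, TLR1 and TLR7 are not shown. The 250 bases before the RefSeq start site are printed for TLR4, CD14, TLR6, TLR2 and MYD88, read 5′ to 3′ on the strand of the gene. RefSeq and GENCODE starts differ, and the CD14 window lies within the GENCODE span of its gene. The TLR4, TLR2 and MYD88 windows lie mostly within theirs, and only the TLR6 window lies wholly before its gene. Capitals mark GAGGAA or its reverse complement TTCCTC, the core bound by PU.1, an ETS-family factor of monocytes.
TLR4, chr9:117704153-117704402, plus strand: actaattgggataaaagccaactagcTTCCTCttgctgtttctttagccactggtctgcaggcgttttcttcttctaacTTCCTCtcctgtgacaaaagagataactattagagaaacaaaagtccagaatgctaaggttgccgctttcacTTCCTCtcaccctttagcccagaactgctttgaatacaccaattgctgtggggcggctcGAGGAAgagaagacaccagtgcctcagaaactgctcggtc
CD14, chr5:140633176-140633425, minus strand: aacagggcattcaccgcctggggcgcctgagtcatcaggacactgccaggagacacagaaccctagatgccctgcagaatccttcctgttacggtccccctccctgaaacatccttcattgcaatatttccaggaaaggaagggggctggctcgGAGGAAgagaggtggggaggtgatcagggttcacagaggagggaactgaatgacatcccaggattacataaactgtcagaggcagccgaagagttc
TLR6, chr4:38856818-38857067, minus strand: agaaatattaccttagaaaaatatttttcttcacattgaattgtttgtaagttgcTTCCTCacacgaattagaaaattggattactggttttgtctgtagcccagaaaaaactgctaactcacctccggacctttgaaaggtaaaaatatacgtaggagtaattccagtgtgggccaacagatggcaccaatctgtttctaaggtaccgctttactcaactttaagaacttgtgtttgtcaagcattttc
TLR2, chr4:153684030-153684279, plus strand: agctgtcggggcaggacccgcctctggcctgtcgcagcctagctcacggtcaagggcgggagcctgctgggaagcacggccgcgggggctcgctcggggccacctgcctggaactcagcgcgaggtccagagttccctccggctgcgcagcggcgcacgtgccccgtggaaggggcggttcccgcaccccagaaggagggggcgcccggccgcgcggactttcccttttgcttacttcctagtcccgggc
MYD88, chr3:38138411-38138660, plus strand: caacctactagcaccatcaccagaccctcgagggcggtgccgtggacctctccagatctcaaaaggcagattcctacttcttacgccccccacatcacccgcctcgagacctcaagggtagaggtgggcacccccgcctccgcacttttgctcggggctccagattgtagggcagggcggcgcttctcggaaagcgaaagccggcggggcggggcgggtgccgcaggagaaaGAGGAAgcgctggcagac
At least 1 copy stood in 4 of the 7 promoters found, against 23.6% of all 35116 promoters of the same length. The TLR4 promoter held 4 copies, a number reached by 18 of all the promoters (0.0513%), and their first bases lay at -224, -171, -99 and -40 relative to the start site. CD14, TLR6 and MYD88 held 1 copy each, and TLR2, TLR5 and TLR8 held none. A C/EBP pattern, TTNNGNAA on either strand, was found once in CD14, once in TLR6 and 4 times in TLR8. It was in 33.2% of all promoters, and 0.735% held it at least 4 times. TGATGNAA, a composite pattern for ATF4 with C/EBP, was in none of the 7 and in 3.14% of all promoters. TTNNGNAA can hold GAGGAA within it, so the counts of these patterns are not independent. A match describes letters in this window and not a site in use.

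Of the lipopeptide receptors, TLR2 and TLR6 fell and TLR1 was not called. TLR2, the shared chain of both lipopeptide complexes (plus strand of chromosome 4, 153684070 to 153705702, ENSG00000137462.7), was at 85.12 and 82.35 TPM under sgMETTL1.3, 91.30 and 88.00 TPM under sgMETTL1.6, and 107.56 and 105.53 TPM under sgNS. All 4 guide libraries lay below the controls. TLR2 fell by 0.30 ± 0.035 over both guides (SE, limma adjusted p = 1.0e-05), and stayed the highest of the 10 genes in every group. The guides differed by -0.10 (95% interval -0.18 to -0.01, adjusted p = 0.097), a difference called with quantile or median-ratio scaling, without ribosomal protein genes and with the replicate block (adjusted p = 0.030 to 0.042).

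TLR6, the partner of TLR2 for diacyl lipopeptides, lies on the minus strand of chromosome 4 (38823715 to 38856817, ENSG00000174130.12). It measured 4.01 and 3.82 TPM under sgMETTL1.3, 3.04 and 2.81 TPM under sgMETTL1.6, and 5.50 and 5.32 TPM under sgNS. Its guide libraries lay below both controls, as did those of 27.3% of tested genes. TLR6 fell by 0.55 ± 0.074 over both guides (SE, limma adjusted p = 3.5e-05), and 4.59% of tested genes fell at least as far. Here sgMETTL1.6 was the lower guide, with a log2 difference of 0.32 ± 0.086 for sgMETTL1.3 against sgMETTL1.6 (limma adjusted p = 0.018). That call was lost without either sgMETTL1.3 replicate (adjusted p = 0.096 without replicate 1 and 0.055 without replicate 2), without sgMETTL1.6 replicate 2 (adjusted p = 0.069) and when low genes were kept in (adjusted p = 0.057).

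TLR1, the partner of TLR2 for triacyl lipopeptides, was not called in any comparison. Its gene (minus strand of chromosome 4, 38790677 to 38856817, ENSG00000174125.7) contains the annotated span of TLR6 on the same strand. TLR1 was at 3.05 and 3.92 TPM under sgMETTL1.3, 3.16 and 3.09 TPM under sgMETTL1.6, and 4.13 and 3.48 TPM under sgNS, and the guide and control libraries overlapped. The log2 difference over both guides was -0.16, with a 95% interval of -0.37 to 0.05 (limma adjusted p = 0.17), so a fall as large as that of TLR2 lies within the interval. Of the distinct 31-base stretches of the annotated TLR1 transcripts 9.06% also occur in TLR6 transcripts, and of those of TLR6 6.9% occur in TLR1. Reads from these stretches are divided between the genes by the authors' model, so both levels carry that uncertainty. TLR1 stood at 0.761 and 1.03 times the level of TLR6 with sgMETTL1.3, 1.04 and 1.10 times with sgMETTL1.6, and 0.751 and 0.654 times with sgNS.

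**Figure D2:**
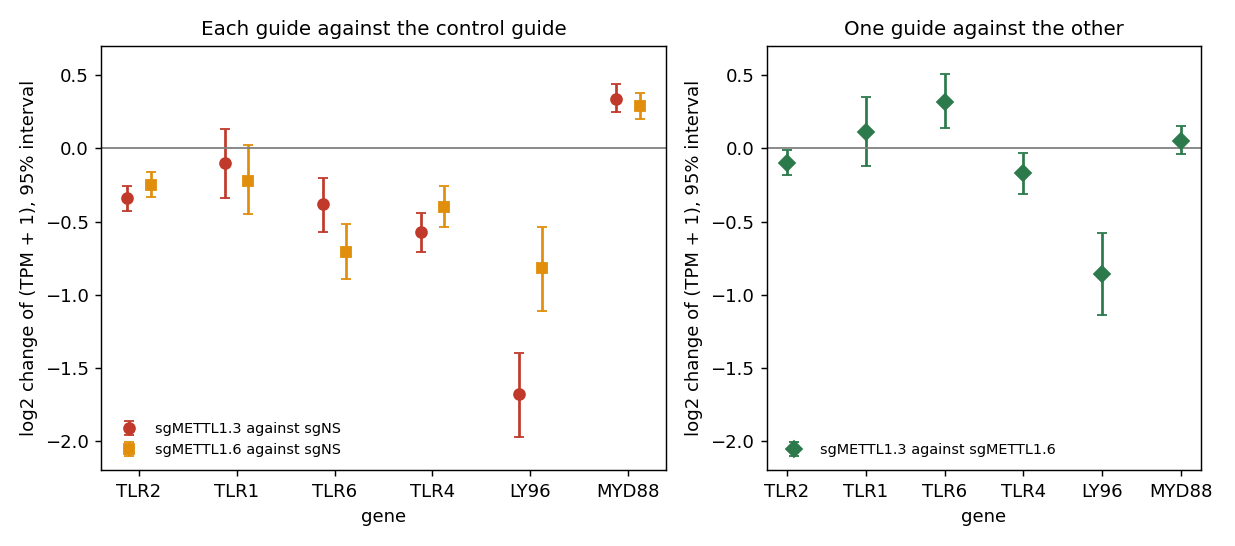
Log2 change of (TPM + 1) with its 95% interval from limma for the 6 tested genes, each guide against sgNS at left (circles for sgMETTL1.3, squares for sgMETTL1.6) and sgMETTL1.3 against sgMETTL1.6 at right. Of these, 4 genes lie below 0 and MYD88 above it with both guides, the intervals of TLR1 include 0, and LY96 (-0.86) and TLR6 (0.32) differ between the guides in opposite directions.

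The flagellin receptor and the endosomal RNA receptors were near the lower end of the table. TLR5 (chromosome 1, minus strand, 223109406 to 223143282) was at 0.54 and 0.36 TPM under sgMETTL1.3, 0.33 and 0.31 TPM under sgMETTL1.6, and 0.22 and 0.27 TPM under sgNS. Its guide libraries lay above both controls, which held in that direction for 8.63% of the genes averaging 0.1 to under 1 TPM. With no filter on low values TLR5 did not pass over both guides (log2 change 0.15, limma adjusted p = 0.086) and passed with sgMETTL1.3 alone (0.22, adjusted p = 0.045), where that setting called 38.6% of genes, 22.1% higher. TLR7 ranged from 0.02 to 0.06 TPM in the guide libraries and from 0.04 to 0.09 TPM in the sgNS libraries. TLR8 ranged from 0.07 to 0.16 TPM in the guide libraries and from 0.15 to 0.16 TPM in the sgNS libraries. These neighbours on the plus strand of chromosome X (12867083 to 12890380 and 12906620 to 12923169) overlapped between guides and control, and neither passed with no filter (adjusted p = 0.32 and 0.33). An antisense gene, TLR8-AS1, covers 1714 bases of TLR8.

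MYD88 went the other way. The adaptor, which links all of the receptors above to the IRAK kinases (plus strand of chromosome 3, 38138478 to 38143022, ENSG00000172936.13), was at 63.37 and 60.96 TPM under sgMETTL1.3, 60.03 and 59.67 TPM under sgMETTL1.6, and 48.76 and 48.74 TPM under sgNS. Every guide library lay above both controls, as it did for 32.9% of tested genes. MYD88 rose by 0.32 ± 0.037 over both guides (SE, limma adjusted p = 9.6e-06). The guides differed by 0.05 with a 95% interval of -0.04 to 0.15 (adjusted p = 0.38). MYD88 reached 0.744 and 0.740 of the TLR2 level with sgMETTL1.3, 0.658 and 0.678 with sgMETTL1.6, and 0.453 and 0.462 with sgNS.

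**Figure D3:**
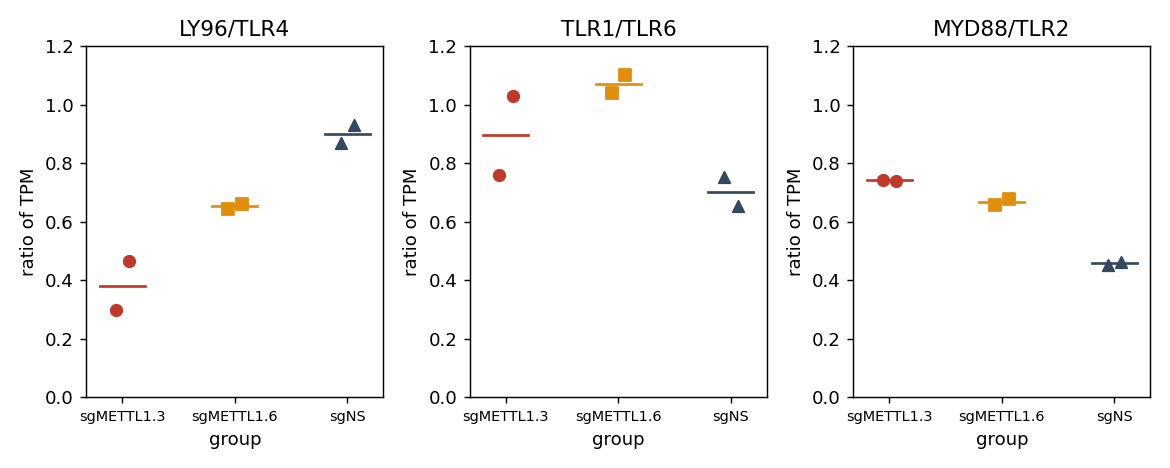
Ratio of TPM between genes of a pair in each library, grouped as sgMETTL1.3, sgMETTL1.6 and sgNS, with lines at the mean of 2 libraries. LY96 over TLR4 is lowest with sgMETTL1.3 (0.297 and 0.466), TLR1 over TLR6 is 0.751 and 0.654 with sgNS, and MYD88 over TLR2 is 0.658 to 0.744 in the guide libraries and 0.453 and 0.462 in the sgNS libraries.

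Compared with sgNS one guide at a time, the same split appeared with each, although both comparisons use the same control libraries. With sgMETTL1.3, 4 members fell and 1 rose, where 58.5% of tested genes were called (24.2% lower, 34.3% higher). With sgMETTL1.6, 4 fell and 1 rose, where 51% of tested genes were called (25.3% lower, 25.7% higher). LY96, TLR4, TLR2 and TLR6 changed by -1.68, -0.57, -0.34 and -0.38 with sgMETTL1.3 and by -0.82, -0.40, -0.25 and -0.71 with sgMETTL1.6. MYD88 changed by 0.34 with sgMETTL1.3 and by 0.29 with sgMETTL1.6. Between the guides, 2 of the 6 members were called, TLR6 higher and LY96 lower in sgMETTL1.3, where 23% of tested genes were called (15.8% higher, 7.23% lower).

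The genes whose profiles over the 6 libraries lay nearest to those of LY96 and TLR6 were looked up by root mean square distance of log2(TPM + 1) after subtraction of the sgNS mean. For LY96 they were VAT1L and FAM65B, each at a distance of 0.2. Nearness was measured over these same libraries, so a like order of the groups follows from the choice. VAT1L was at 1.68 and 1.76 TPM under sgMETTL1.3, 3.35 and 3.75 TPM under sgMETTL1.6, and 8.06 and 8.20 TPM under sgNS. FAM65B was at 2.24 and 2.61 TPM under sgMETTL1.3, 3.86 and 3.89 TPM under sgMETTL1.6, and 7.96 and 8.17 TPM under sgNS. For TLR6 they were BCL3 (distance 0.046) and KIF1B (0.051), and BCL3, a nuclear member of the I-kappa-B family, was at 8.43 and 8.81 TPM under sgMETTL1.3, 6.58 and 6.52 TPM under sgMETTL1.6, and 11.59 and 10.91 TPM under sgNS.

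Other genes of the pathway moved in both directions. The counts of each list are read against all tested genes, of which 32.6% were called higher and 26.8% lower. Of the other receptors and co-receptors 4 of 7 were tested, of which 2 rose and 1 fell. LY86 (also called MD-1), the LY96 relative that pairs with CD180, was at 359.56 and 368.65 TPM under sgMETTL1.3, 381.70 and 382.29 TPM under sgMETTL1.6, and 406.39 and 415.51 TPM under sgNS, a log2 change of -0.14. CD36, a scavenger receptor that assists TLR2, rose by 0.22, a call lost without sgNS replicate 1 (adjusted p = 0.16). Its log2 change was 0.37 with sgMETTL1.3 (limma adjusted p = 0.0015) and 0.07 with sgMETTL1.6 (adjusted p = 0.52), and the guides differed by 0.30 (adjusted p = 0.017). CD180 rose by 0.14 (adjusted p = 0.046), a call lost in 8 of 15 alternatives, among them median-ratio scaling and the omission of ribosomal protein genes. Without sgNS replicate 1, 0 of the 4 rose and 1 fell. TLR9, the endosomal DNA receptor, was at 1.33 and 1.34 TPM under sgMETTL1.3, 1.73 and 1.85 TPM under sgMETTL1.6, and 1.80 and 2.04 TPM under sgNS. Over both guides TLR9 was not called (log2 change -0.19, limma adjusted p = 0.088), but passed in 2 of 14 alternatives. It was lower with sgMETTL1.3 (-0.32, adjusted p = 0.019) and not called with sgMETTL1.6 (-0.06, adjusted p = 0.64). The difference of -0.26 between the guides was not called (adjusted p = 0.097). TLR3, TLR10 and LBP were below 0.2 TPM throughout.

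Of 8 tested genes for receptor trafficking and cleavage, 4 rose and 2 fell, with a median of 0.11. CXorf21 (also called TASL), the adaptor that docks on SLC15A4 and recruits IRF5, was at 87.79 and 83.71 TPM under sgMETTL1.3, 84.03 and 82.28 TPM under sgMETTL1.6, and 49.48 and 49.44 TPM under sgNS. It rose by 0.76 ± 0.037 (SE, limma adjusted p = 2.0e-09). SLC15A4, the endolysosomal transporter it docks on, rose by 0.46, and UNC93B1, which escorts endosomal receptors, by 0.22, while the receptors TLR7 and TLR8 themselves were close to 0 in these cells. UNC93B1 changed by 0.32 with sgMETTL1.3 (limma adjusted p = 0.0002) and by 0.12 with sgMETTL1.6 (adjusted p = 0.074), and the guides differed by 0.20 (adjusted p = 0.019). HSP90B1, the chaperone of Toll-like receptors, rose by 0.13, and the cathepsins CTSB and CTSS each changed by -0.13. CTSL (-0.05) and AP3B1 (0.08) were not called, and LGMN was at most 0.03 TPM.

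Among the other adaptors 3 of 6 rose and 0 fell by the limma test, with a median of 0.11, and 1 of them (TICAM2) was lower at an unadjusted p under 0.05. SCIMP, a membrane adaptor of Toll-like receptors, rose by 0.56, TIRAP, which brings MYD88 to TLR2 and TLR4, by 0.24, and PIK3AP1 by 0.23. TIRAP changed by 0.40 with sgMETTL1.3 (limma adjusted p = 0.00017) and by 0.09 with sgMETTL1.6 (adjusted p = 0.26), and the guides differed by 0.31 (adjusted p = 0.0061). TICAM2, the bridging adaptor of TLR4 to the interferon branch, was at 6.23 and 5.14 TPM under sgMETTL1.3, 8.94 and 9.89 TPM under sgMETTL1.6, and 9.03 and 7.90 TPM under sgNS. It was lower with sgMETTL1.3 than with sgNS (log2 change -0.50, limma adjusted p = 0.00047) and was not called with sgMETTL1.6 (0.14, adjusted p = 0.24). Over both guides it was not called (adjusted p = 0.069), but passed in 4 of 15 alternatives. It differed between the guides, with a log2 difference of -0.64 (limma adjusted p = 0.0006), in the same direction as LY96. TICAM1 (-0.01), the adaptor of the interferon branch, and SARM1 (-0.17) were not called over both guides.

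Of 21 kinases and ubiquitin ligases 7 rose and 4 fell, with a median of 0.05, where 32.6% of all tested genes rose and 26.8% fell. The counts were 5 and 5 after median-ratio scaling, and 4 and 2 without sgNS replicate 2. IRAK1, the kinase downstream of MYD88, was at 325.46 and 335.18 TPM under sgMETTL1.3, 285.85 and 296.86 TPM under sgMETTL1.6, and 233.98 and 246.83 TPM under sgNS, a rise of 0.37 ± 0.032 (SE, limma adjusted p = 6.3e-07). UBE2N, the ubiquitin-conjugating enzyme that works with TRAF6, rose by 0.31, and PELI2, a ligase that acts on IRAK1, fell by 0.63. Of 8 transcription factors 2 rose and 3 fell. RELB and NFKB2, the pair of the non-canonical NF-kB pathway, fell by 0.72 and by 0.67, and IRF5, which acts downstream of MYD88 and CXorf21, rose by 0.49. RELA, the main activating subunit of NF-kB, rose by 0.22, IRF1 fell by 0.16 (a call lost without sgNS replicate 2, which left 2 of the list lower), and NFKB1 (0.02), REL (-0.05) and IRF3 (-0.04) were not called. Negative regulators were split with 4 higher and 5 lower of 12 (2 higher and 4 lower without sgNS replicate 1), SIGIRR rising by 0.30 and NFKBIA and TRIM38 falling by 0.25 and by 0.29.

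Of the inflammatory genes that the pathway switches on, more fell than rose, where 26.8% of all tested genes were called lower and 32.6% higher. Of the 24 found in the table, 13 were tested, of which 8 fell and 1 rose, with a median log2 change of -0.47. The lowest p-values were those of CXCL8 (-1.26), a neutrophil chemokine, ICAM1 (-0.87), an adhesion molecule, and NFKBIZ (-0.65), a nuclear cofactor of NF-kB, and SOD2 rose by 0.21. The labels name no stimulus, and levels within the list ranged widely. CXCL8 was at 161.17 and 158.22 TPM and ICAM1 at 50.51 and 49.44 TPM under sgNS. IL6, IL10 and IL12B were at or below 0.12 TPM in every library. Beside these counts, 7 of 8 immediate early genes fell (median -0.47, summed level 1480 to 1850 TPM in the guide libraries and 2160 to 2200 TPM in the sgNS libraries), and 7 of 10 tested monocytic markers fell and 1 rose. FOS, ATF3, DUSP1, FOSB, JUNB, IER2 and JUN were the immediate early genes that fell, and EGR1 (-0.06) was not called. The median of these immediate early genes was -0.71 with sgMETTL1.3 and -0.3 with sgMETTL1.6. Between the guides, 5 of them were called lower and 1 higher in sgMETTL1.3, where 7.23% and 15.8% of tested genes were. Of the monocytic markers, CD86 fell by 1.01, FCGR1A by 0.84, VCAN by 0.83, ITGAM by 0.64, CD68 by 0.37, FCGR2A by 0.33 and LYZ by 0.14. MNDA rose by 0.22, and CST3 (0.01) and CD33 (0.00) were not called. The guides differed for some markers. CST3 rose with sgMETTL1.3 (0.13, limma adjusted p = 0.0076) and fell with sgMETTL1.6 (-0.11, adjusted p = 0.021). LYZ was not called with sgMETTL1.3 (-0.04, adjusted p = 0.18) and fell with sgMETTL1.6 (-0.24, adjusted p = 1.1e-05). The part of these shifts in the members' changes was not tested.

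**Figure D4:**
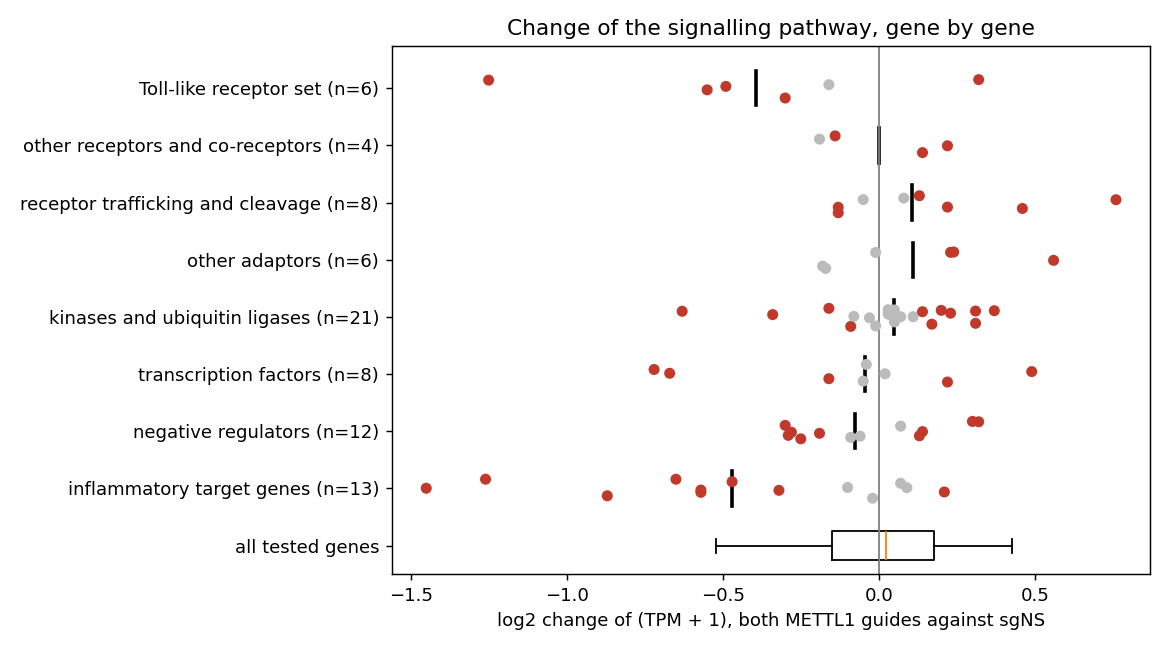
Log2 change of (TPM + 1), both METTL1 guides against sgNS, for each tested gene of the pathway, red where called (limma adjusted p under 0.05) and grey where not, with black lines at list medians. The box gives the quartiles of all 10911 tested genes with whiskers at the 5th and 95th percentiles; the receptor set (median -0.39) and the inflammatory genes (median -0.47) lie to the left and the trafficking genes and other adaptors (median 0.11 each) slightly to the right.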

How the data were processed

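Transcript levels were read from a single table of 18806 gene symbols. The authors deposited TPM, made with RSEM 1.2.31 on GRCh38 per the submitters' processing notes; aligner and annotation: not given in the sources used here. Since TPM sum to a fixed total, abundant genes that change move the remainder. RSEM divides reads between similar transcripts by a model. Column names identified all 6 libraries, with 0 columns left over.

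The 10911 genes averaging 1 TPM or more were fitted with limma 3.58.1 (R 4.3.3) on log2(TPM + 1), in 1 model of all 3 groups with a variance trend (3 residual and 9.84 prior degrees of freedom). Adjusted p-values are Benjamini-Hochberg over all tested genes. The fit was tested on simulated data. The genes followed and the pathway lists were chosen with earlier results of these data known. The text names every member, METTL1, the 3 genes with the lowest p of each list, all genes of lists with 10 or fewer tested members where counted, and the 2 nearest profiles of members with an absolute log2 change of at least 0.5; other genes named, such as SOD2, IL6, IL10, IL12B and further markers, were chosen after their values were seen. CNPY3, IRF7 and TNF, which the lists hold, are not analysed here. Gene positions and 31-base stretches came from GENCODE 29 and promoters from RefSeq. Alternatives were pseudocounts of 0.5 and 5, no filter or a mean of at least 5 TPM, quantile and median-ratio scaling, omission of ribosomal protein genes, no variance trend, the replicate number as a block and leaving out each library.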

Additional observations from a re-analysis of the deposited data

Results flagged for a closer look

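The effects of the guides differed for 2 of the 6 tested members, by the limma test of sgMETTL1.3 against sgMETTL1.6. That test called 23% of all tested genes. LY96 had a log2 difference of -0.86 (adjusted p = 0.00083), with 3.72 and 5.91 TPM in the libraries labelled sgMETTL1.3 and 9.74 and 8.99 TPM in those labelled sgMETTL1.6. TLR6 had a log2 difference of 0.32 (adjusted p = 0.018), with 4.01 and 3.82 TPM in the sgMETTL1.3 libraries and 3.04 and 2.81 TPM in the sgMETTL1.6 libraries. With no filter on low values neither gene was called (limma adjusted p = 0.054 for LY96 and 0.057 for TLR6). That setting called 6.53% of genes between the guides. The TLR6 call was also lost when some single libraries were left out. With 2 libraries in a group, no test for single outlying libraries was made.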

How the results depend on the processing

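For the members, 338 of 352 alternative values kept their direction and their side of the threshold, 5 lost a call, 9 gained one and 0 reversed. Against sgNS, over both guides or one at a time, no call of a tested member was lost in any alternative that tested it; TLR1 and TLR6 were not tested at a mean of at least 5 TPM. The calls between the guides were less stable. There the 2 members called became 0 with no filter on low values, 1 at a mean of at least 5 TPM, and 4 with quantile normalization, median-ratio scaling, omission of ribosomal protein genes or the replicate block. Leaving out 1 library gave 1 to 2 members. Over all genes, the 2510 calls between the guides became 1023 with no filter and 1409 without the variance trend, and leaving out 1 library gave 1215 to 2476. The cause was not tested. The labels do not say that a replicate number marks a shared culture or day, and there are only 2 numbers. Deviations of same-numbered libraries correlated at -0.01, 0.15 and 0.21 between groups, so whether the numbers pair the samples is not settled. With the replicate number as a block 6976 genes were called over both guides, against 6484 without it, and 3615 between the guides, and LY96 changed by -1.25 over both guides, as without it. METTL1 was not called with sgMETTL1.3 with no filter (adjusted p = 0.057). Scaling alternatives moved the median of all genes by less than 0.1 on the log2 scale. The depth of the libraries is unknown, so how many reads lie behind values below 1 TPM is not known.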
